A study of Mus musculus with 20 samples.

Results

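The 8 genes described here encode inducible brakes on mitogen-activated protein kinase (MAPK) signalling: the dual-specificity phosphatase genes Dusp1, Dusp2, Dusp4, Dusp5, Dusp6 and Dusp10 and the Sprouty genes Spry1 and Spry2. They were taken by symbol from a table of 45777 gene symbols, and all 8 were present. The RNA came from CD8+ T cells that were sorted out of MC38 tumours 4 days after treatment. MC38 is a mouse colon carcinoma line, here made to overexpress human PD-L1, and it grew in mice on the C57BL/6 background that carry the human genes for PD-1, PD-L1 and 4-1BB. Treatment groups were drawn at random once tumours measured 150 to 200 mm3. The 20 libraries form 4 groups of 5: Control, Pembrolizumab (an antibody against PD-1), ABL503 (a bispecific antibody against PD-L1 and 4-1BB) and Combination (both agents). All groups share the genotype and the tumour. The labels do not say what the Control group received, nor whether each library stands for a mouse of its own. The p-values therefore reflect only how these libraries scatter, which may be technical.

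The ERK, p38 and JNK kinases are switched on by phosphorylation of a threonine and a tyrosine in their activation loop, and dual-specificity phosphatases remove both phosphates. Many of these phosphatase genes are themselves switched on by MAPK signalling, for example after the T-cell receptor is engaged, which closes a negative feedback loop. Sprouty proteins are ERK-induced membrane-associated inhibitors that act further upstream, between receptors and the Ras to ERK cascade.

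Promoter sequences are shown for 4 of the genes, because the text below turns on Dusp5 and Dusp10, which fell in treated groups, on Dusp2, which varied together with Dusp5, and on Dusp1, whose group means lay close together. The promoter table of RefSeq (GRCm38.p6) held 7 of the 8 genes, all but Dusp4. Each line gives the 250 bases before the annotated start of the gene, 5′ to 3′ on the strand of the gene, at chr19:53528895-53529144 (plus strand) for Dusp5, chr1:184034131-184034380 (plus) for Dusp10, chr2:127335909-127336158 (plus) for Dusp2 and chr17:26508473-26508722 (minus) for Dusp1. Capitals mark a full cAMP response element (TGACGTCA), an AP-1 site (TGANTCA), an E-box (CACGTG) or a CArG box, the 10-base site of serum response factor, searched on both strands.
Dusp5: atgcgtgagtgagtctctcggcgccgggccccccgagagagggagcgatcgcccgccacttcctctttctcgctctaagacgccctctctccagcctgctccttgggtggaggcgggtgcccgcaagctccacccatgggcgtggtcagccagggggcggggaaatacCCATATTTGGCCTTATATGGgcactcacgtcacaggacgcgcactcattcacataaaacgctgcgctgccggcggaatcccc
Dusp10: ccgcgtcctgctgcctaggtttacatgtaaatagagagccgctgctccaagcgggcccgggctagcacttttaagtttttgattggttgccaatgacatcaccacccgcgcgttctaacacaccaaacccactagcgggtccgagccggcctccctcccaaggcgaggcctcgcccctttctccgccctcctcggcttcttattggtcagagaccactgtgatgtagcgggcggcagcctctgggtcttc
Dusp2: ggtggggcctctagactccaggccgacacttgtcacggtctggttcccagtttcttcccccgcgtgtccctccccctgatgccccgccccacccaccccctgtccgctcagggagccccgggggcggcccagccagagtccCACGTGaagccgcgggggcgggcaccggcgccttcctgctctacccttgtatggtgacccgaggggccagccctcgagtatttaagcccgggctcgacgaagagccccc
Dusp1: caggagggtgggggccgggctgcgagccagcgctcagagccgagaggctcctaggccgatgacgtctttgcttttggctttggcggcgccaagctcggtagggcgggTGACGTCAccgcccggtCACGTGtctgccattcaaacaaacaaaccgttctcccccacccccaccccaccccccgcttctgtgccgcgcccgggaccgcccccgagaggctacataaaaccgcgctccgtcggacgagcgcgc

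The Dusp5 window held 2 CArG boxes side by side, from 82 to 73 and from 72 to 63 bases before the start. A CArG box occurred in 1.47% of the 32851 promoter windows of this length in the table. The Dusp1 window held a full cAMP response element from 143 to 136 bases before the start, a motif of 1.55% of all windows, and an E-box from 126 to 121. The Dusp2 window held an E-box from 109 to 104, and E-boxes occurred in 6.02% of windows. AP-1 sites occurred in 6.75% of windows and in none of the 7 members' windows. None of the motifs was found in the windows of Dusp10, Dusp6, Spry1 or Spry2, which says only that these letters are not there.

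Levels spanned a wide range. The unit, which the deposited table does not name, was inferred to be FPKM, a fragment count per length of transcript and size of library, so levels can be set beside each other between genes. Dusp2, also called PAC-1, a nuclear phosphatase abundant in lymphocytes, had the highest mean, 578 FPKM over the 20 libraries, above 98.4% of the 11794 genes tested. Dusp1 (MKP-1), a nuclear phosphatase of p38, JNK and ERK that is induced within minutes of stimulation, averaged 249. After these came Dusp5, a nuclear phosphatase specific for ERK, with 53.3 FPKM, and Dusp6 (MKP-3), its cytoplasmic ERK-specific relative, with 40.5. Dusp10 (MKP-5), which acts on p38 and JNK, averaged 27.5, and Dusp4 (MKP-2), a nuclear phosphatase of ERK and JNK, 16.6. The Sprouty genes were lowest, Spry1 with 4.69 and Spry2 with 0.769. Spry2 reached 1 FPKM in 3 of 20 libraries and was below the minimum for the test across genes, so 7 of the 8 members were tested there.

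**Figure D1:**
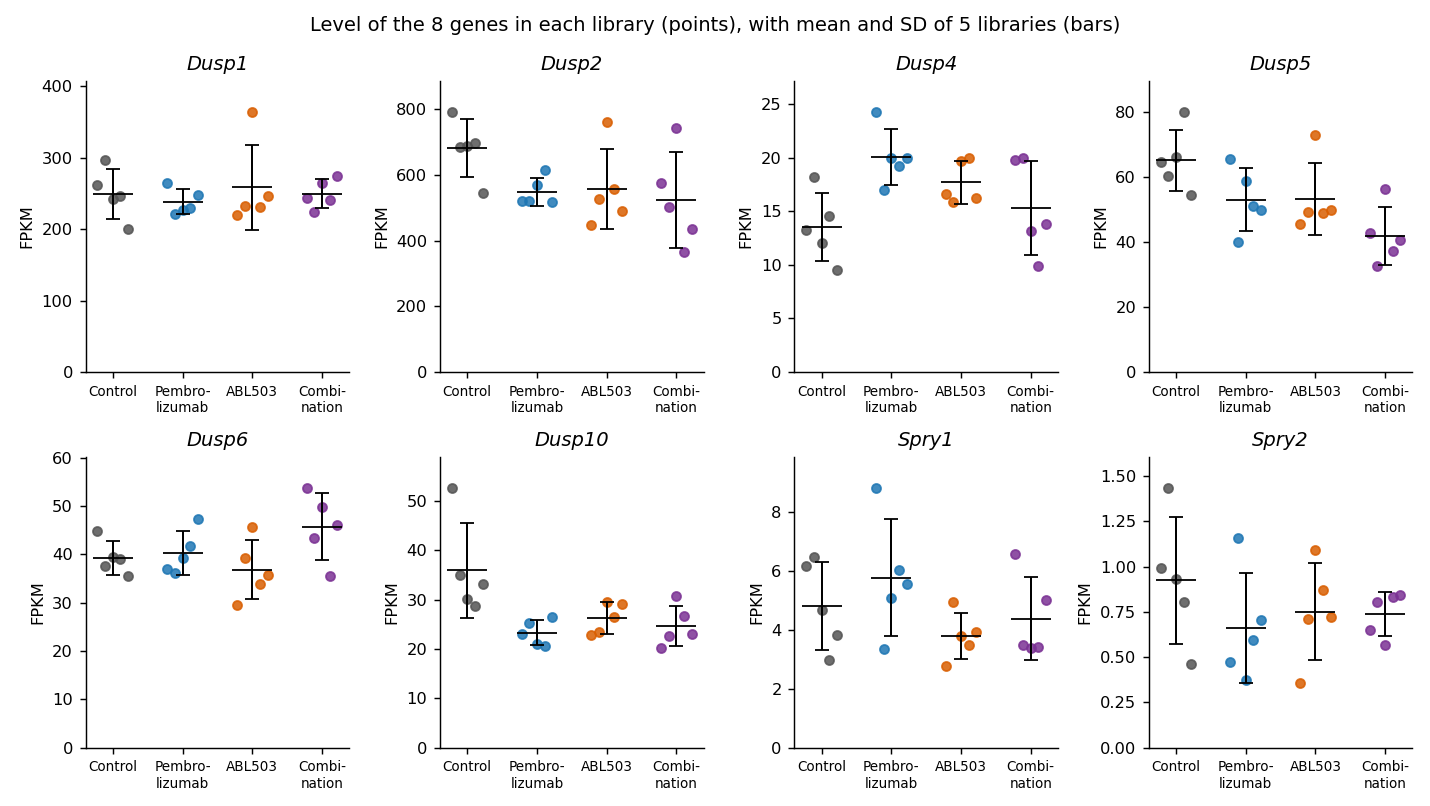
Level of each gene in FPKM (vertical axis, from 0) in each library (points) by group (horizontal axis), with the mean and SD of 5 libraries (black bars). The Pembrolizumab points of Dusp10 lie below all 5 Control points, and the ABL503 3 library is the highest of its group for Dusp1, Dusp2, Dusp5 and Dusp6.

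Before the comparisons, 2 libraries need naming. ABL503 3 had the highest value of its group for 6 of the 8 members, and Control 1 for 3 of them. These libraries also had the lowest array weights, limma's estimates of how closely a library follows its group, at 0.589 for ABL503 3 and 0.513 for Control 1 with a median of 1.05 over the 20 libraries. The dissociation-stress genes, a list of immediate early and heat-shock genes that respond to tissue handling, were also highest in ABL503 3, at a mean log2(FPKM + 1) of 6.62 against 5.88 to 6.34 in the other 19 libraries. Over the 20 libraries, after each group mean was subtracted, the level of this list ran with Dusp1 (r = 0.74), Dusp6 (r = 0.66), Dusp2 (r = 0.62) and Dusp5 (r = 0.53), and less with Dusp10 (r = 0.41) and Dusp4 (r = 0.19). These correlations describe libraries that share a preparation, and the part of handling in the results was not tested.

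The sort markers were present and those of other lineages low. All 8 CD8 T-cell markers averaged at least 1 FPKM in every group, with summed levels of 4906 to 8035 FPKM. The B-cell list (6 genes) summed to 16.9 to 91.8 FPKM, the dendritic-cell list (12 genes, MHC class II genes included) to 101 to 574, and the neutrophil list (5 genes) to 0 to 13.6. The 14 macrophage and monocyte genes summed to 1323 to 3559 FPKM, but nearly all of that was Ly6c2, which CD8 T cells express too: the other 13 genes, taken after the values were seen, summed to 14.9 to 144.1. Summed tumour epithelium markers (6 genes) ran from 2.38 to 9.88 FPKM, those of fibroblasts and endothelium (8 genes) from 1.23 to 4.16, and those of NK cells (5 genes) from 25.5 to 42.4 in Control and from 34.8 to 82.7 in the treated groups. C1qa, a macrophage gene, was at 0 throughout ABL503 and the Combination. C1qa was also low in Control, with a mean of 0.333 FPKM and a median of 0, so it says little of macrophage content. For the 13 genes without Ly6c2, the median sum was 42.5 FPKM over Control libraries and 41.9 after ABL503. That sum was 52.7 with pembrolizumab and 23.5 with both agents. The CD4 and regulatory T-cell list (6 genes) summed to 141 to 277. Of its genes, Cd4 averaged 0.166 to 0.398 FPKM over the groups, Foxp3 0.308 to 0.751 and Il2ra 16.1 to 35.1. Ncr1, of the NK list, averaged at most 0.168 FPKM in any group. In bulk RNA, fewer cells that express a gene and less of its RNA per cell cannot be told apart.

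The comparison of Pembrolizumab with Control addressed what blocking PD-1 alone did to these brakes. Dusp10, the phosphatase of p38 and JNK, was lower, and the ERK phosphatases and Spry1 did not pass the test. Among the 7 members tested 1 passed (0 higher, 1 lower), where 5.55% of all 11794 genes passed and 2.78% passed as lower. With 7 genes, 1 call is read against that background. The median log2 change was -0.06 over the members and -0.03 over all genes.

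Dusp10 stood at 52.6, 35.0, 30.1, 28.7 and 33.1 FPKM in the 5 Control libraries, and at 23.1, 25.2, 21.0, 20.6 and 26.5 after pembrolizumab. The groups did not overlap, which was the case in that direction for 3.41% of all genes tested. The mean fell from 35.9 ± 9.67 (SD, n = 5) to 23.3 ± 2.55 FPKM, a log2 change of -0.58 (limma, SE 0.14, adjusted p = 0.022). Control 1 stood far above the other Control libraries. Without it the Control mean was 31.7 ± 2.86 FPKM (SD, n = 4), the log2 change was -0.43 and the adjusted p 0.051, and without Pembrolizumab 3 the adjusted p was 0.054. With only these 2 groups in the fit it was 0.060, and without a filter on low values 0.061, so the call rests on the setting while the direction was the same in all 19 alternative fits.

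Dusp4, the phosphatase of ERK and JNK, moved the opposite way without passing. Its Control values were 13.2, 18.2, 12.1, 14.6 and 9.54 FPKM, and its Pembrolizumab values 24.2, 17.0, 20.002, 19.2 and 19.9. The means were 13.5 ± 3.2 and 20.1 ± 2.63 FPKM (log2 change 0.56, SE 0.17, adjusted p = 0.058). The groups overlapped through Control 2, and without that library the adjusted p was 0.033. It was also under the threshold after quantile normalization (0.044) and with array weights (0.047), and without Pembrolizumab 1 it was 0.15. In all, Dusp4 passed in 1 of the 10 fits that left out a library and in 2 of the 9 other alternatives.

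Dusp2 and Dusp5 had lower means after pembrolizumab, within the test's error. Dusp2 averaged 681 ± 87.4 FPKM in Control and 549 ± 43.2 in Pembrolizumab (log2 change -0.30, SE 0.16, adjusted p = 0.29). Dusp5 averaged 65.1 ± 9.44 and 53.1 ± 9.56 (log2 change -0.30, SE 0.15, adjusted p = 0.28). Dusp1, Dusp6 and Spry1 gave -0.06 (95% interval -0.31 to 0.19), 0.03 (-0.21 to 0.28) and 0.21 (-0.24 to 0.66). These intervals bound the differences but do not show that the levels were equal.

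ABL503 against Control addressed the bispecific antibody alone. None of the 7 tested members passed in limma's test, where 0.619% of all genes passed. At an unadjusted p under 0.05 there were 2, Dusp4 and Dusp10, beside 11% of all genes. Dusp10 stood at 22.8, 23.4, 29.6, 26.5 and 29.2 FPKM after ABL503, with a mean of 26.3 ± 3.15 (log2 change from Control -0.41, SE 0.14, adjusted p = 0.26). Dusp4 stood at 16.6, 15.8, 19.7, 19.96 and 16.2 FPKM, with a mean of 17.7 ± 1.99 (log2 change 0.39, SE 0.17, adjusted p = 0.40). The comparisons with Control share the same 5 Control libraries.

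Dusp2 and Dusp5 had log2 changes of -0.30 each after ABL503 (SE 0.16 and 0.15, adjusted p = 0.49 for both). Dusp2 read 448, 528, 761, 558 and 492 FPKM, and Dusp5 45.5, 49.1, 72.8, 48.8 and 49.9. In both genes ABL503 3 was the highest. The other 4 libraries lay close together for Dusp5, and for Dusp2 they spread from 448 to 558 FPKM. Without that library the Dusp5 mean was 48.3 ± 1.94 FPKM (SD, n = 4) in place of 53.2 ± 11.1 (SD, n = 5), and the log2 change from Control was -0.41 with an adjusted p of 0.27. Dusp1 was high in the same library, at 364 FPKM against 220 to 247 in the other 4, and its log2 change was 0.04 (SE 0.12, adjusted p = 0.94).

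The Combination against Control addressed both antibodies together. Dusp5, the nuclear ERK phosphatase, and Dusp10 were lower, while Dusp6, the cytoplasmic ERK phosphatase, had a higher mean that did not pass. Among the 7 members tested 2 passed (0 higher, 2 lower), beside 12.6% of all genes, and 6.24% passed as lower. The members' median log2 change was -0.11, and that of all genes -0.04.

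Dusp5 stood at 64.7, 60.4, 66.2, 79.9 and 54.5 FPKM in Control and at 42.8, 32.5, 56.3, 37.1 and 40.5 in the Combination. Only Combination 3 reached into the Control range. Mean Dusp5 fell from 65.1 ± 9.44 to 41.8 ± 8.96 FPKM, a log2 change of -0.64 (SE 0.15, adjusted p = 0.010). The call held in all 10 fits that left out 1 of these libraries, with adjusted p from 0.0027 to 0.034.

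Dusp10 stood at 20.2, 22.6, 30.8, 26.6 and 23.0 FPKM in the Combination, against 28.7 to 52.6 in Control. Again Combination 3 alone reached into the Control range. The mean was 24.6 ± 4.11 FPKM (log2 change -0.51, SE 0.14, adjusted p = 0.025). Leaving out 1 library ended this call in 4 of 10 fits, with adjusted p up to 0.066 without Control 1 (log2 change -0.36), and 0.064, 0.060 and 0.055 without Combination 1, Combination 2 and Combination 5. With only these 2 groups in the fit it was 0.078, without a filter 0.065, and without Control 1 and ABL503 3 together 0.061.

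Other-cell markers, 37 genes of macrophages, dendritic cells, B cells and neutrophils, moved with this comparison. Their mean log2(FPKM + 1) was 1.87 ± 0.351 (SD, n = 5) in Control and 1.36 ± 0.116 in the Combination. With that level as a covariate, Dusp5 changed by -0.55 (SE 0.21, adjusted p = 0.15) and Dusp10 by -0.60 (SE 0.20, adjusted p = 0.094). The log2 change thus stayed of similar size, the errors grew and neither gene passed. The number of all genes called went from 1484 to 355 with the covariate. Its lowest Control value, 1.504, lay above its highest Combination value, 1.481, so this fit can hardly separate it from the treatment. Within groups the covariate ran little with Dusp5 (r = 0.14) or Dusp10 (r = -0.18). Its genes include Ly6c2, which CD8 T cells express too. Calls lost with it in this comparison, here and below, therefore do not show a part of other cells, which was not tested.

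Dusp2 in the Combination ranged more widely than in any other group, at 575, 502, 744, 365 and 435 FPKM. Its mean was 524 ± 146 FPKM (log2 change from Control -0.41, SE 0.16, adjusted p = 0.090), and without Combination 3 the adjusted p was 0.017. Dusp6 read 44.8, 37.5, 39.5, 39.0 and 35.5 FPKM in Control and 53.7, 43.3, 49.9, 35.6 and 46.2 in the Combination. The means were 39.2 ± 3.49 and 45.7 ± 6.88 FPKM (log2 change 0.21, SE 0.12, adjusted p = 0.26). Dusp4, at 19.8, 19.9, 13.2, 9.86 and 13.8 FPKM, overlapped both Control and Pembrolizumab, and its log2 change was 0.15 (SE 0.17, adjusted p = 0.58). Dusp1 gave 0.01 (95% interval -0.24 to 0.26), with means of 249.4 FPKM in both groups.

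**Figure D2:**
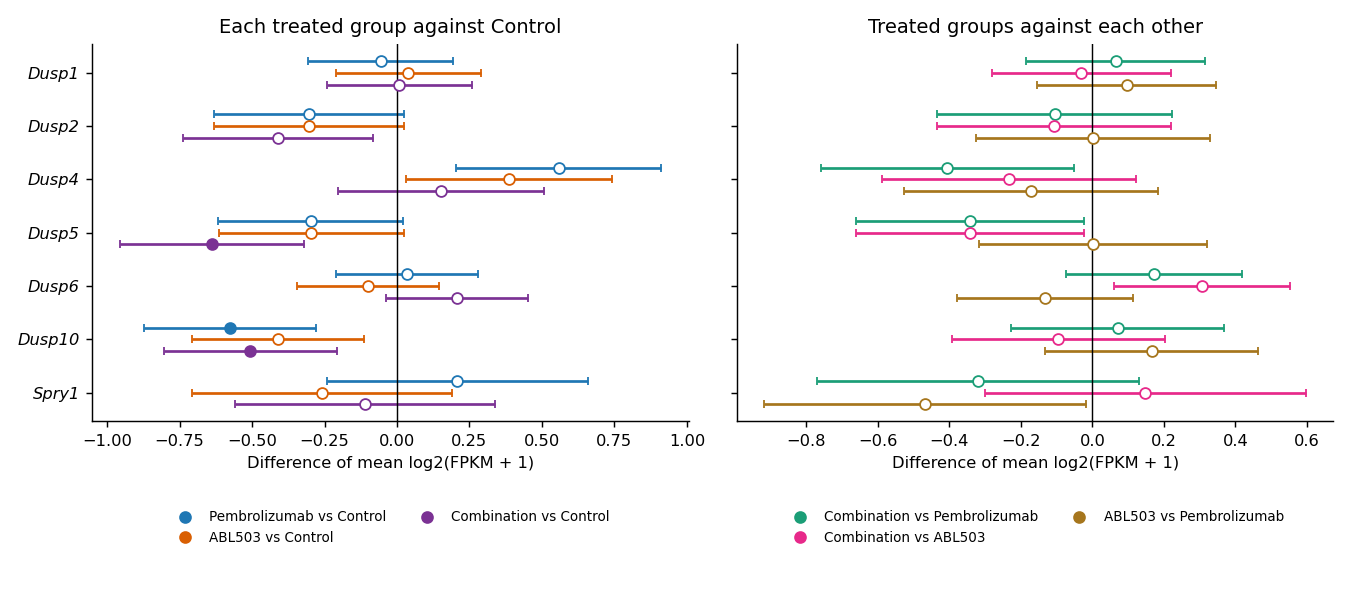
Difference of group means of log2(FPKM + 1) for the 7 tested genes (horizontal axis), with 95% intervals; the left panel sets each treated group against Control and the right panel the treated groups against each other. Filled points passed at an adjusted p under 0.05: Dusp10 in Pembrolizumab and the Combination, and Dusp5 in the Combination.

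The treated groups were also set against each other. No member passed in Combination against Pembrolizumab (0.161% of all genes did), in Combination against ABL503 (4.53%) or in ABL503 against Pembrolizumab (1.28%). At an unadjusted p under 0.05 there were 2, 2 and 1 members, beside 13.2%, 20.4% and 13.5% of all genes. Dusp5 was lower in the Combination than in either single-agent group by a similar amount, with log2 differences of -0.34 from each (SE 0.15, adjusted p = 0.34 against Pembrolizumab and 0.21 against ABL503). Dusp6 was higher in the Combination than in ABL503 by 0.31 (SE 0.12, adjusted p = 0.14), its 5 ABL503 values being 29.6, 39.3, 45.6, 33.9 and 35.8 FPKM. Dusp4 was lower in the Combination than in Pembrolizumab by a log2 difference of -0.41 (SE 0.17, adjusted p = 0.31). Dusp10 differed by 0.07 (95% interval -0.23 to 0.37) between Combination and Pembrolizumab.

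The interaction asks whether the change with pembrolizumab on top of ABL503 differed from its change alone. No member passed limma's test, where 0.203% of all genes did. An unadjusted p under 0.05 was reached by 2 members, beside 10.3% of all genes. For Dusp4 the interaction was -0.79 (SE 0.24, adjusted p = 0.20): pembrolizumab went with a difference of 0.56 without ABL503 and of -0.23 with it. For Dusp10 it was 0.48 (SE 0.20, adjusted p = 0.40), from -0.58 without ABL503 and -0.10 with it. For Dusp5 it was -0.04 (SE 0.22, adjusted p = 0.97), the changes being -0.30 and -0.34.

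The Sprouty genes were low and variable. Spry1 read 6.18, 6.48, 4.66, 2.99 and 3.82 FPKM in Control, and 8.83, 3.35, 5.10, 6.03 and 5.57 after pembrolizumab. It read 2.78, 4.94, 3.80, 3.49 and 3.92 after ABL503 and 6.59, 3.50, 3.37, 3.41 and 5.03 in the Combination. All 4 groups overlapped. The widest difference was between ABL503 and Pembrolizumab, at 3.78 ± 0.779 and 5.78 ± 1.98 FPKM (log2 change -0.47, SE 0.22, adjusted p = 0.34). The Control mean of Spry2 was 0.925 ± 0.352 FPKM. Its means in the treated groups were 0.662 ± 0.304 with pembrolizumab, 0.75 ± 0.268 with ABL503 and 0.738 ± 0.123 with both. Over the 6 pairs of groups, two-sided exact permutation tests on log2(FPKM + 1) gave p from 0.23 to 1.0 and adjusted p from 0.75, where 5 against 5 libraries allow a smallest p of 0.0079.

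**Figure D3:**
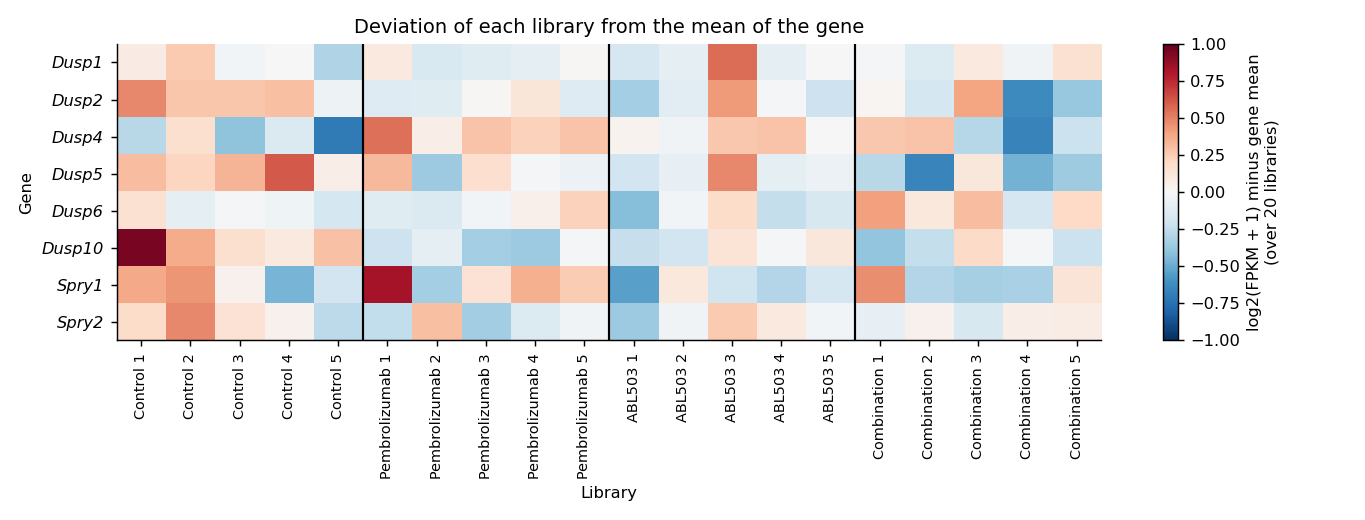
Deviation of log2(FPKM + 1) in each library (columns, by group) from the mean of the gene over 20 libraries (rows), from blue (lower) to red (higher). Dusp2 and Dusp5 are mostly red in Control and blue in the Combination, Dusp10 is red in all 5 Control libraries, and ABL503 3 is red for Dusp1, Dusp2 and Dusp5 within a mostly blue group.

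Members also varied together between libraries of the same group. After each group mean was subtracted, 26 of the 28 pairs of members had a positive correlation over the 20 libraries, with a median r of 0.34. The closest pairs were Dusp2 with Dusp6 (r = 0.75), Dusp2 with Dusp5 (r = 0.66) and Dusp1 with Dusp5 (r = 0.65). Dusp4 with Dusp10 was the lowest pair (r = -0.19). Dusp5 and Dusp6 had r = 0.51 within groups and 0.03 over all libraries without that subtraction, since their group means moved apart. These values are descriptions over libraries that share their preparation and whose sequencing depth is unknown.

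That divergence is clearest in the ratio of Dusp5 to Dusp6 within each library, a measure chosen after the values were seen and therefore not tested. The ratio was 1.44 to 2.05 in the 5 Control libraries, 1.06 to 1.77 in Pembrolizumab, 1.25 to 1.60 in ABL503 and 0.75 to 1.13 in the Combination. The Control and Combination ranges did not overlap, and how often other pairs of genes separate in this way was not determined. The ratio of Dusp4 to Dusp5 separated Control (0.175 to 0.301) from Pembrolizumab (0.341 to 0.423). It overlapped Control in ABL503 (0.271 to 0.409) and in the Combination (0.234 to 0.614). The ratios of Dusp2 to Dusp1 and of Spry1 to Spry2 were computed too, and their ranges overlapped between all groups. Dusp5 exceeded Dusp6 in every library outside the Combination, and in the Combination the order was reversed in 3 of 5 libraries. A ratio shows unequal change and not which of the genes moved.

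**Figure D4:**
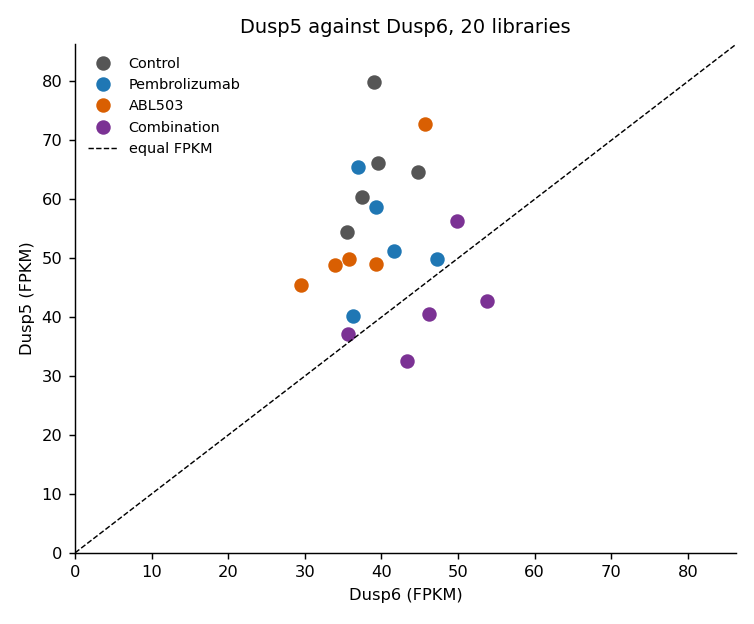
Dusp5 (vertical axis) against Dusp6 (horizontal axis), both in FPKM from 0, for the 20 libraries coloured by group, with a dashed line of equal FPKM. All Control libraries lie above the line, at ratios of 1.44 to 2.05, as do those of Pembrolizumab (1.06 to 1.77) and ABL503 (1.25 to 1.60). Combination libraries lie on either side of it, at 0.75 to 1.13.

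Among 5602 better expressed genes, those whose level followed each member most closely within groups were taken. For Dusp6 the closest was Egr1, an immediate early transcription factor induced through ERK (r = 0.89), followed by Kansl3 (r = 0.82). For Dusp5 they were Tgif1, a homeobox repressor (r = 0.84), and Nr4a1, an orphan nuclear receptor induced by the T-cell receptor (r = 0.82). For Dusp1 they were Zfp36, which encodes an mRNA-destabilising protein of the same early wave (r = 0.87), and Mapkapk3, a kinase activated by p38 (r = 0.86). Dusp2 was followed by Slc9a3r1 (r = 0.95). Dusp4 was followed by Zbtb32, a zinc-finger repressor of activated lymphocytes (r = 0.83), and by Cd5, an inhibitor of T-cell receptor signalling (r = 0.79). For Dusp10 they were Riok1 (r = 0.81) and Naa60 (r = 0.73), for Spry1 Adipor2 (r = 0.71) and Ddb1 (r = 0.67), and for Spry2 Crtam (r = 0.77) and Phf6 (r = 0.74). The highest of many correlations over 20 libraries is a description and carries no p. Egr1, Nr4a1 and Zfp36 are also on the dissociation-stress list.

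Some of these genes also changed between groups. Nr4a1 fell in the Combination (22.2 to 10.9 FPKM, log2 change -0.98, SE 0.22, adjusted p = 0.0069), the comparison in which Dusp5 fell. Tgif1 fell there too (-0.58, SE 0.14, adjusted p = 0.0083), and it passed with pembrolizumab as well (-0.46, SE 0.14, adjusted p = 0.0497), where Dusp5 did not. Egr1 did not pass in the Combination, with a log2 change of 0.05 (SE 0.16, adjusted p = 0.88). Zbtb32, the gene closest to Dusp4, rose in all 3 treated groups, by 2.52, 1.51 and 1.78 (adjusted p = 4.93e-06, 0.0031 and 7.39e-05 in Pembrolizumab, ABL503 and the Combination), with an interaction of -2.25 (SE 0.33, adjusted p = 0.0046). Nr4a1 no longer passed with the other-cell covariate (adjusted p = 0.16).

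Relatives of the members were also compared. Of all genes tested, 5.55% passed with pembrolizumab, 0.619% with ABL503 and 12.6% in the Combination. With 9 relatives tested, 1 call is read against that background. Of 16 other dual-specificity phosphatase, Sprouty and Spred genes 15 were in the table and 9 were tested. After pembrolizumab 1 rose and 0 fell, after ABL503 1 rose and 0 fell, and in the Combination none passed, with median log2 changes of 0.08, 0.18 and 0.13. The gene that rose with pembrolizumab was Dusp22, a phosphatase that inactivates the T-cell kinase Lck in mice, from 2.22 to 4.56 FPKM, a log2 change of 0.91 (SE 0.26, adjusted p = 0.040). The gene that rose with ABL503 was Dusp14, an atypical phosphatase that dampens T-cell receptor signalling, from 70.2 to 114.9 FPKM, a log2 change of 0.71 (SE 0.16, adjusted p = 0.042). Leaving out 1 of 10 libraries ended each of these calls in 7 fits, with adjusted p up to 0.090 for Dusp22 and 0.12 for Dusp14 (without Pembrolizumab 3 and ABL503 3). By mean level Dusp14 (89.8 FPKM over all libraries) ranked above Dusp5, whereas Spry4, Spred3, Dusp9 and Dusp8 averaged under 1 FPKM.

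Some genes of the kinase cascades on which these brakes act passed. Counts for this list and those that follow stand beside the shares of all genes tested that passed. These shares were 5.55% with pembrolizumab, 0.619% with ABL503 and 12.6% in the Combination. Of 20 genes of the Ras to ERK cascade, 0 rose and 1 fell with pembrolizumab, none passed with ABL503, and 2 rose and 1 fell in the Combination. Nras, a Ras protein, rose in the Combination (0.41, SE 0.09, adjusted p = 0.0058). Map3k8, a kinase upstream of ERK in immune cells, fell with pembrolizumab (-0.47, SE 0.12, adjusted p = 0.027) and in the Combination (-0.48, SE 0.12, adjusted p = 0.013). The other-cell covariate ended the call of Nras (adjusted p = 0.081). Map3k8 with pembrolizumab lost its call in 5 of 10 fits without 1 library (adjusted p up to 0.074, without Control 4).

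Of 19 tested genes of the p38 and JNK cascade, 1 rose and 1 fell with pembrolizumab, none passed with ABL503, and 1 rose and 3 fell in the Combination. Mapk14, which encodes p38 alpha, a substrate of DUSP10, fell in the same comparisons as Dusp10. Its mean was 23.6 FPKM in Control, 18.0 in Pembrolizumab (log2 change -0.37, SE 0.11, adjusted p = 0.046) and 18.1 in the Combination (-0.37, SE 0.11, adjusted p = 0.029). These calls were lost in 8 and 5 of the 10 fits that left out a library, with adjusted p up to 0.11 without Pembrolizumab 1 and 0.079 without Combination 2. Of 19 tested genes for other brakes on Ras and MAPK signalling, 1 rose and 2 fell with pembrolizumab, none passed with ABL503, and 1 rose and 3 fell in the Combination. Among these, Ptpn22, a tyrosine phosphatase that restrains the T-cell receptor kinases, fell with pembrolizumab (-0.39, SE 0.09, adjusted p = 0.017). Rasa3, a Ras inhibitor, fell in the Combination (-0.86, SE 0.19, adjusted p = 0.0054), though not with the other-cell covariate (adjusted p = 0.076).

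Other ERK-responsive genes did not move in 1 direction in the Combination. Of 18 tested, 3 rose and 0 fell with pembrolizumab, none passed with ABL503, and 3 rose and 4 fell in the Combination, with a median log2 change of -0.16. Ier3, an early-response survival gene, rose with pembrolizumab from 32.5 to 70.6 FPKM, a log2 change of 1.14 (SE 0.16, adjusted p = 0.00059). In the Combination it was at 33.1 FPKM, and its interaction was -1.62 (SE 0.23, adjusted p = 0.0046). Plaur, the urokinase receptor, fell in the Combination from 13.1 to 2.20 FPKM (-2.29, SE 0.30, adjusted p = 7.19e-05), and Fosl2, an AP-1 subunit, by -0.83 (SE 0.19, adjusted p = 0.0073). Klf6, a zinc-finger factor, rose by 0.63 and Elk3, an ETS factor, by 0.92 (adjusted p = 0.00098 and 0.00096). With the other-cell covariate Fosl2 had an adjusted p of 0.091.

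Genes induced by the T-cell receptor were split in the Combination as well. Of 18 tested, 4 rose and 0 fell with pembrolizumab, 2 rose and 0 fell with ABL503, and 3 rose and 4 fell in the Combination. Tnfrsf9, the mouse gene symbol for 4-1BB, rose by 1.15, 0.60 and 1.26 in the 3 treated groups (adjusted p = 1.11e-05, 0.014 and 4.25e-06), and without ABL503 5 the middle p was 0.054. The mice carry the human gene for 4-1BB and the build named is that of the mouse. What part of the 4-1BB RNA these values hold is therefore unknown. Of the 20 dissociation-stress genes, 1 rose and 0 fell with pembrolizumab, 5 rose and 0 fell with ABL503, and 0 rose and 4 fell in the Combination. Those with the smallest p after ABL503 were heat-shock genes such as Hsph1 (1.64, SE 0.24, adjusted p = 0.0027), while Fos, an early gene on the same list, gave -0.48 (adjusted p = 0.34). Dusp1, which is not on the list, gave 0.04 (adjusted p = 0.94).

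In the genome, on GRCm38.p6, Dusp10 spans chr1:184034381-184075636 and Dusp5 chr19:53529145-53541809. The sources used here do not say that counting used strand, so reads from a member and from a gene overlapping it on the opposite strand cannot be told apart. In GENCODE M21 such overlaps exist for Dusp10 (1272 bases with 1700056E22Rik), Dusp5 (547 bases with AC137853.2), Spry1 (710 bases with Gm42922) and Dusp1 (640 bases with Ergic1 and 956 with the pseudogene Gm8225). Dusp1 also shares 1853 and 227 bases on its own strand with AC122252.1 and AC122252.4. 1700056E22Rik averaged 1.55 to 2.64 FPKM over the groups, well under Dusp10. Ergic1 averaged 12.8 FPKM in Control and 20.01 in Pembrolizumab, and Gm8225 14.6 to 17.3 over the groups, beside about 249 FPKM for Dusp1. Levels of the other overlapping genes, AC137853.2 of Dusp5 among them, are not given here. None of these levels shows how many reads the overlapping genes shared.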

How the data were processed

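RNA of sorted CD8+ T cells was made into libraries with SMART-Seq v4 according to the labels. The submitters' processing notes name HISAT2 and StringTie, and GRCm38 (mm10) as the build; versions and annotation are not given in the sources used here. The deposited table names no unit, and its values, made by the authors with these tools before deposit, were taken as FPKM per gene. That unit is inferred from the values: they are not whole numbers and the column sums differ (575918 to 654333), and no scaling between libraries is stated. Sequencing depth is unknown, so precision rests on the spread between libraries.

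A gene entered the fit if 5 or more libraries had at least 1 FPKM of it (11794 of 45777). limma 3.58.1 (R 4.3.3) fitted log2(FPKM + 1) with 1 mean per group over all 20 libraries (16 residual degrees of freedom), moderated variances and an intensity trend. Fold changes of low genes are understated on this scale. There were 7 comparisons, two-sided, with Benjamini-Hochberg adjustment over all genes tested and a threshold of 0.05. Adjusted p-values are from this fit unless another test is named. Spry2 was compared by exact permutation. Plots used Python 3.11.15 with matplotlib 3.10.9. The fit was also run on simulated data with errors drawn independently for each gene. Those data lack shifts shared by the genes of a library, and no result here rests on them.

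Members, lists and tests were chosen with earlier results of these data known. All members were named. Pathway genes were named from up to 4 per list and comparison with the smallest p past the threshold. The 2 genes most like each member were taken by Pearson r within groups, among genes with mean log2(FPKM + 1) of at least 3. Values of Fos, and the tests of Tgif1, Egr1 and Zbtb32, were added after values were seen. Some genes that these rules name are not reported here.

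Same-numbered libraries did not deviate together (r from -0.15 to 0.11 over 30 pairs, 2 of them above 0.1), so the numbers were not taken as pairs. No libraries held identical values.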

Additional observations from a re-analysis of the deposited data

Results flagged for a closer look

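In 3 of the 32 sets of 5 libraries (8 genes in 4 groups), 1 library stood far from the other 4, judged by its gap to the nearest library over the whole range of the group against Dixon's limit of 0.71. Chance alone flags about 1 in 20 such sets. ABL503 3 was high for Dusp1 (364 FPKM, the next library 247, ratio 0.811) and for Dusp5 (72.8 against 49.9 FPKM, ratio 0.839). Control 1 was high for Dusp10 (52.6 against 35.0 FPKM, ratio 0.737). The values of these groups without the library stand beside the results they touch. For Dusp1, the ABL503 mean without ABL503 3 was 233 ± 11.2 FPKM (SD, n = 4), against 259 ± 59.5 (SD, n = 5) with it.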

How the results depend on the processing

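No member that passed in any fit of a comparison changed direction in another fit of the same comparison. Over 994 recomputed log2 changes of the 7 tested members, 13 lost a call, 4 gained one and 57 changed sign without passing before or after, all from main values of at most 0.11 in size. In Pembrolizumab against Control, where 1 member passed, 0 passed without a filter and with only the groups compared, and 2 (Dusp4 and Dusp10) after quantile normalization and with array weights; leaving out single libraries gave 0 to 2. In the Combination against Control, where 2 passed, 1 (Dusp5) passed without a filter, with only the groups compared and without Control 1 and ABL503 3 together, and 0 with the other-cell covariate; leaving out single libraries gave 1 to 3, the 3 without Combination 3, where Dusp2 also passed. In the 5 other comparisons 0 members passed in every fit. A pseudocount of 0.1 and rescaling to equal sums changed no member's call. The replicate block gave 1 and 2 members in these comparisons and changed no call of a member, and the pairing has no support in the deviations.

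Counts over all genes, which form the background, moved more. Without a filter they were 321, 42, 939, 3, 271, 67 and 6, against 655, 73, 1484, 19, 534, 151 and 24, in the order Pembrolizumab, ABL503 and Combination against Control, Combination against Pembrolizumab and against ABL503, ABL503 against Pembrolizumab, and interaction. Array weights raised the last 4 to 85, 935, 301 and 50, in that order. The other-cell covariate gave 355, 4 and 76 for the Combination against Control, Pembrolizumab and ABL503. Using only the groups compared gave 395 for Pembrolizumab against Control and 3 for Combination against Pembrolizumab. Without Control 1 and ABL503 3 the counts were 37 for ABL503 against Control, 32 for Combination against Pembrolizumab, 89 for ABL503 against Pembrolizumab and 7 for the interaction. Single libraries moved these counts too. Pembrolizumab against Control gave from 383 (without Pembrolizumab 1) to 707 (without Control 5), ABL503 against Control from 40 (without ABL503 5) to 72 (without Control 5), and Combination against Control from 958 (without Combination 2) to 1659 (without Control 5). Combination against Pembrolizumab gave from 6 (without Pembrolizumab 1 or Combination 2) to 49 (without Pembrolizumab 2), Combination against ABL503 from 271 (without ABL503 2) to 752 (without ABL503 1), ABL503 against Pembrolizumab from 54 (without ABL503 2) to 218 (without ABL503 1), and the interaction from 6 (without Pembrolizumab 1) to 49 (without Pembrolizumab 4). Rescaling to equal sums moved the share of higher genes in ABL503 against Pembrolizumab from 67.5% to 78.2% and in Combination against ABL503 from 50.6% to 39.9%. Where the fit used fewer genes or libraries, that changes the adjustment; other causes were not tested. Tgif1, Egr1, Zbtb32 and Fos were not recomputed. Unknown depth limits what can be said of Spry1 and Spry2.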
